A study of Mus musculus with 2 samples.

Results

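The complement genes examined here are 32 components, regulators and receptors of the complement system, named by symbol and matched by Ensembl identifier, out of 52636 Ensembl genes counted. They comprise 5 classical pathway genes, 5 lectin pathway genes, C3, 3 alternative pathway genes, 7 terminal pathway genes, 5 soluble regulators, 3 membrane regulators and 3 receptors. By textbook knowledge 22 of them are made mainly by hepatocytes, 3 are receptors on leukocytes, and 7 have other or mixed sources. All 32 reached 1 CPM (reads scaled to an equal total of reads in genes, set so that all genes of a library sum to 1000000) in at least 1 library.

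Complement is a cascade of plasma proteins, most of them secreted by the liver. The classical, lectin and alternative pathways each assemble a protease that cleaves C3, after which C5 is cleaved and C6 to C9 form a membrane pore. Small fragments of C3 and C5 act on receptors of leukocytes, and regulators in plasma and on cell surfaces break the cascade off.

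Both libraries came from livers of C57BL/6 mice aged 9 weeks, taken 6 h after GalN (D-galactosamine, 800 µg per g body weight) and LPS (endotoxin, 100 ng per g). The WT group is wild type and the KO group is GBP5-/-, a loss of an interferon-inducible GTPase, and the labels do not give how the allele was made. Each group is a single library from pooled RNA of 4 livers, so no difference below has a replicate check, and no untreated group was analysed here. The libraries held 19864848 (WT) and 15750875 (KO) reads in genes, and Gbp5 itself had 161.6 CPM in WT against 55.4 in KO. Every interval printed is a 95% counting interval of a KO to WT ratio of CPM, which compares these 2 libraries and not the genotypes. Markers of liver parenchyma were abundant in both, with Alb at 38384 and 69250 CPM.

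The complement genes together held nearly the same share of both libraries, 2.02% of reads in WT and 2.04% in KO. Of the 22 genes made mainly by hepatocytes, 19 had KO to WT ratios between 0.813 and 1.45, and Cfb, C4b and C4a lay below. Over all members, C4a, C4b, Fcna, Cfp and Cfd were at least 2-fold lower in KO. These 5 of 32 are 15.6% of the members, and 12.4% of the 14072 genes at 1 CPM or more passed the same rule. No member was at least 2-fold higher, against 4.63% of all genes. At a 1.5-fold rule Cfb joined the lower side, for 6 members against 24.9% of all genes, and C5ar2 alone was on the higher side, against 12.5%. In all, 13 members (40.6%) were lower in KO by any amount, against 54.1% of all genes. The count at least 2-fold lower is thus near the background of these libraries.

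**Figure D1:**
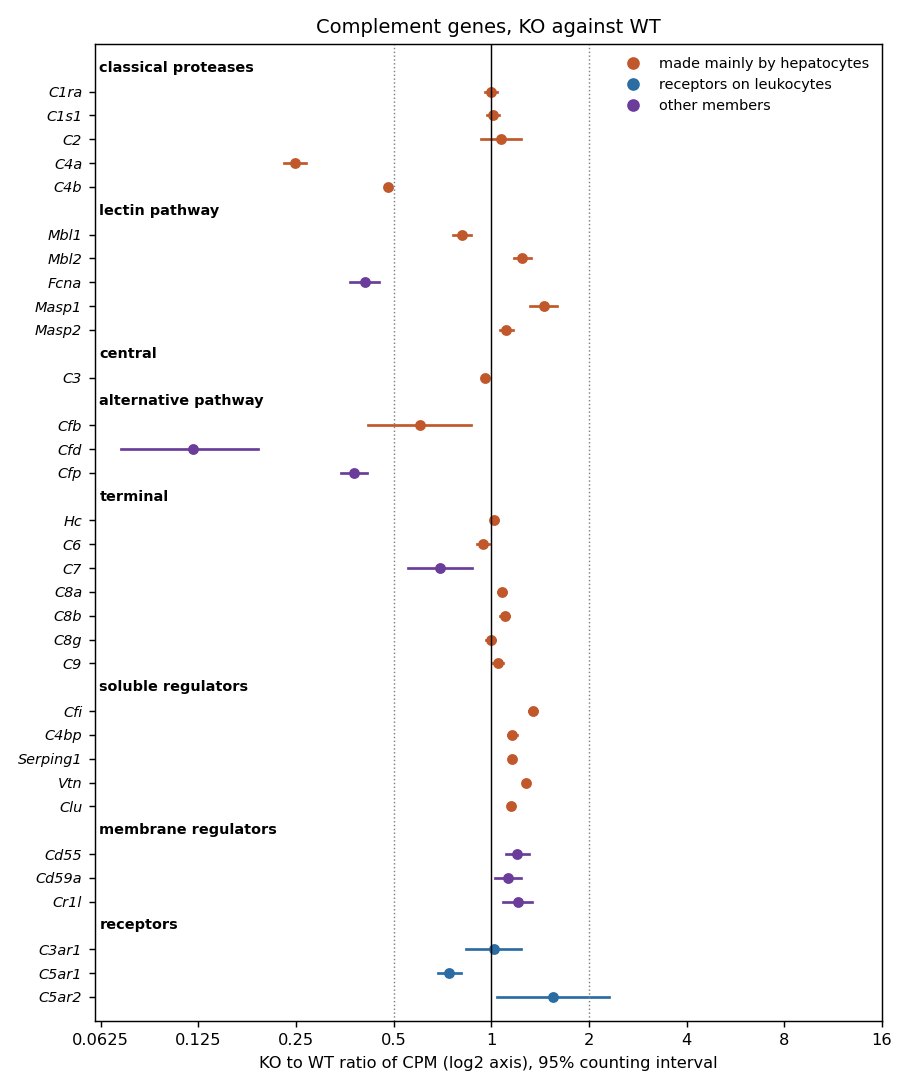
KO to WT ratio of CPM for the 32 complement genes (log2 axis), grouped by role and coloured by main source, with 95% counting intervals as lines and dotted lines at 2-fold. Cfd, C4a, Cfp, Fcna and C4b lie to the left of the lower dotted line, and no gene lies to the right of the upper one.

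Per transcript length, C3 and Vtn were the most abundant complement transcripts. C3, the protein on which all 3 pathways converge, had 1432 FPKM (CPM per kilobase of exon) in WT against 1373 in KO. In reads this was 146278 and 111240, or 7364 and 7063 CPM, a ratio of 0.959 (0.952 to 0.967). C3 lies on GRCm38 chromosome 17, 57203970 to 57228136, minus strand. C3 alone made up 36.4% of the complement CPM in WT and 34.6% in KO. Together with Vtn and Clu it made up 62.1% and 65.6%. C3 was nearly level by CPM, but its log2 difference went from -0.06 to 0.27 with a correction for GC content and transcript length.

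**Figure D2:**
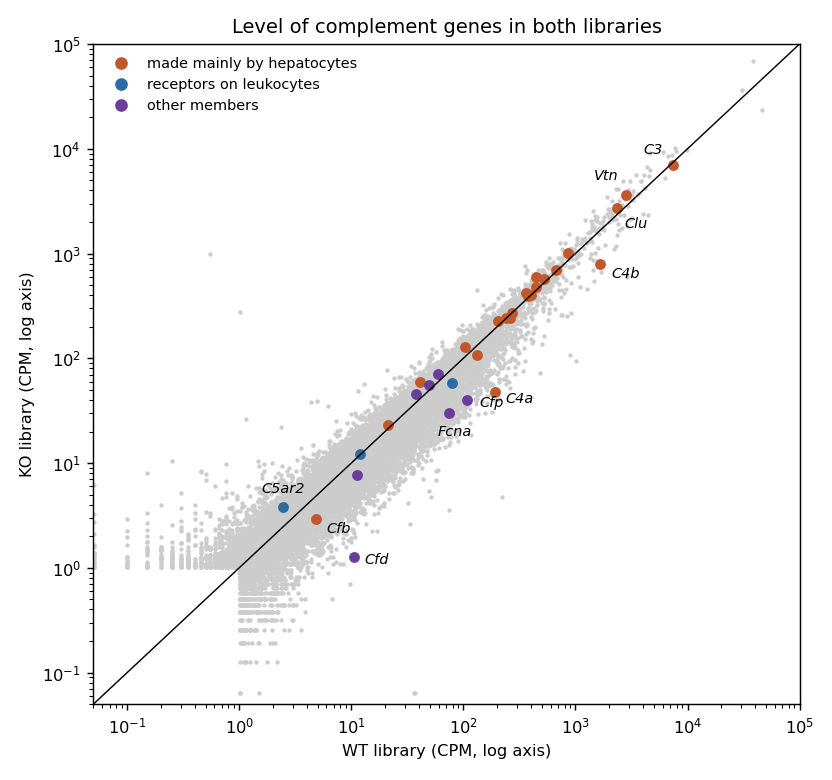
CPM of the 32 complement genes in the WT (horizontal) and KO (vertical) libraries on log axes, over all genes at 1 CPM or more in either library and above 0 in both (grey), with the line of equality. C3, at 7364 and 7063 CPM, sits near the line, and Cfd, at 10.5 and 1.27 CPM, lies farthest below it.

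The promoters of C3 and of 3 genes that were lower in KO are shown because they differ in the short sequence motifs they hold. RefSeq (GRCm38.p6) promoters, 250 bases before to 50 after the gene's start, were found for 24 of the 32 genes. C2, C4a, C4b, Masp1, Cfb, Cfi, Serping1 and Clu were not among them. Both strands were searched for TTNNGCAA (C/EBP, a factor family of hepatocytes and myeloid cells), TTCNNNGAA (STAT), GAGGAA (a PU.1 core, a myeloid factor) and the NF-kB consensus. Capitals mark the matches, and the sequences below run 5′ to 3′ on the gene's strand.
C3, chr17:57228087-57228386, minus strand: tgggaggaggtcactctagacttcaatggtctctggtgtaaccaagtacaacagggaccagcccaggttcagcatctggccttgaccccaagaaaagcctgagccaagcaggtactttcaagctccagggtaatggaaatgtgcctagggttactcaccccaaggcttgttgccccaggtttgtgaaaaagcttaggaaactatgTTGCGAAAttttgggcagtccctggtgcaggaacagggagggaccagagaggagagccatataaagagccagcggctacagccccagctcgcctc
Cfp, chrX:20931506-20931805, minus strand: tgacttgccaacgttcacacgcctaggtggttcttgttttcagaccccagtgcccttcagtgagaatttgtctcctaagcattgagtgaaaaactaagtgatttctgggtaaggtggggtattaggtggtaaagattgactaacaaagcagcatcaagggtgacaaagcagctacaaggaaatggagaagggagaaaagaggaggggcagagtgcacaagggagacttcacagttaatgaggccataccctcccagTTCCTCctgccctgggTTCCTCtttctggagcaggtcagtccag
Fcna, chr2:25627925-25628224, minus strand: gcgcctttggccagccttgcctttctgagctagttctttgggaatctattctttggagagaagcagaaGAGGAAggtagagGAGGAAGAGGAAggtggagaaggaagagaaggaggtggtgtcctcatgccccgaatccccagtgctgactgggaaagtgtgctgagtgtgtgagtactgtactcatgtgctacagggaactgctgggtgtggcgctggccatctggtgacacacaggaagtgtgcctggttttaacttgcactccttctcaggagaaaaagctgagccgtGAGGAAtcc
Cfd, chr10:79890603-79890902, plus strand: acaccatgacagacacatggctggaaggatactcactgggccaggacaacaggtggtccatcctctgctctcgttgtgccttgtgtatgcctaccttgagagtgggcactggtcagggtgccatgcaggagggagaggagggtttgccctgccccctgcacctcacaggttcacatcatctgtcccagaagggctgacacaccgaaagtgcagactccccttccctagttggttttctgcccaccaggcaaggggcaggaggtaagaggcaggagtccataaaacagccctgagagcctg
The C3 window held 1 C/EBP match, from 45 to 38 bases before the start. The Cfp window held 2 PU.1 core matches, both past the start and in the reverse orientation, and that of Fcna held 4. The Cfd window held none of the motifs. Among the 24 genes, 5 held the C/EBP motif, 5 the STAT motif, 4 the PU.1 core and 0 the NF-kB consensus. Over all 32851 promoters of 300 bases the shares were 10.8%, 8.3%, 28.3% and 4.5%. By these small counts the C/EBP and STAT motifs were more frequent among the 24 genes, and the PU.1 core and NF-kB consensus less frequent. The 4 genes with the PU.1 core were Fcna, Cfp, C1ra and Cd59a. Of these, C1ra and Cd59a had KO to WT ratios of 0.997 and 1.13. A match is a description of letters and no evidence of binding.

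In the classical pathway the proteases were level and C4 was lower. C1ra and C1s1 encode the proteases of the first component. C1ra had 269 CPM in both libraries, a ratio of 0.997 (0.957 to 1.04), and C1s1 had 240 and 243 CPM, a ratio of 1.01 (0.972 to 1.06). Their near-copies C1rb and C1s2, which resemble them at 97.9% and 95.9% of aligned bases, had 55 and 16 reads in WT. C4b, the fourth component that joins C2 in the C3-cleaving enzyme, had 33031 reads in WT against 12604 in KO. That is 1663 and 800 CPM, or 2.08-fold lower in KO (2.04 to 2.12). Relative to C3, C4b had 0.204 times the FPKM in WT and 0.102 times in KO.

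C4a, also known as Slp, is the second C4 gene of the mouse and showed the larger difference. It had 3784 reads in WT against 744 in KO, or 190 and 47.2 CPM, 4.03-fold lower (3.73 to 4.37). The annotation used here classes C4a as a processed transcript, not as protein-coding. The longest transcripts of C4a and C4b share 95.9% of bases over 99.9% of the C4a transcript, so reads may have been assigned between them or dropped, and their separate values are uncertain. Summed, the pair had 36815 and 13348 reads, 2.19-fold lower (2.14 to 2.23). C4b lies on chromosome 17, 34728380 to 34743882, and C4a at 34809092 to 34823464, 65.2 kb apart and both on the minus strand. C4b passed 2-fold by little, and with the same correction its log2 difference went from -1.06 to -0.44, whereas that of C4a went from -2.01 to -1.39. With totals that leave out the 50 most abundant genes, that of C4b was -0.95.

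C2 and Cfb lie near C4a on chromosome 17, with 32.9 kb between C4a and Cfb, and carried few reads. C2 encodes the protease of the classical C3-cleaving enzyme, and Cfb, factor B, its counterpart in the alternative pathway. C2 had 424 and 361 reads, 21.3 and 22.9 CPM, a ratio of 1.07 (0.931 to 1.24). Cfb had 96 and 46 reads, 4.83 and 2.92 CPM, 1.65-fold lower (1.15 to 2.41). The annotation holds a further gene on the same strand, Gm20547, which covers 79.5% of the exon bases of Cfb and 42.8% of those of C2. Gm20547 had 0 reads in both libraries. How reads in the shared exons were assigned is not given in the sources used here, so the levels of Cfb and C2 are uncertain.

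The lectin pathway genes of hepatocytes lay on both sides of WT, and the ficolin gene lay well below it. Mbl1 and Mbl2 encode the mannose-binding lectins that recognise microbial sugars. Mbl1 had 133 CPM in WT against 108 in KO, a ratio of 0.813 (0.764 to 0.864), and Mbl2 had 104 and 129, a ratio of 1.25 (1.17 to 1.33). By CPM the 2 lectins thus stood in opposite directions by similar amounts, with intervals that do not overlap. After the GC and length correction the log2 differences of Mbl1 and Mbl2 were -0.43 and 0.18. Masp1, the protease that activates the lectin complex, had 40.9 and 59.2 CPM, 1.45-fold higher (1.32 to 1.59), the highest ratio among the genes made by hepatocytes. Masp2, which cleaves C4 and C2, had 205 and 228 CPM, a ratio of 1.11 (1.06 to 1.16). Exons of Tardbp on the opposite strand cover 54.9% of Masp2 exon bases, and without a stated strand setting their reads cannot be told apart.

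Fcna encodes ficolin A, a lectin that mouse liver makes mainly in resident macrophages. It had 1475 reads in WT against 476 in KO, 74.3 and 30.2 CPM, 2.46-fold lower (2.21 to 2.73). It lies on chromosome 2, 25624666 to 25628030, and C8g, 122.9 kb away, had a ratio of 0.994 (0.962 to 1.03). Markers of Kupffer cells and macrophages were lower in the same library. Of 12 markers, 11 were lower, against 54.1% of all genes. The 12 had a median ratio of 0.618 and a summed level of 1175 CPM in WT against 633 in KO. Clec4f, which defines Kupffer cells, had 201 and 89.2 CPM, and Marco 305 and 89.4. Marco had the lowest ratio of the list, 0.293. Timd4 and Lyz2 were nearer to level, at 0.794 and 0.900, and Slc40a1, the only one higher, had 1.14. The part of these cells in the Fcna value was not tested, and in bulk tissue fewer cells of a type and less RNA per cell cannot be told apart.

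All 3 alternative pathway genes were lower in KO, as were 54.1% of all genes. Of the 3, Cfb has an uncertain level, as stated above. Cfp encodes properdin, the leukocyte product that stabilises the alternative C3-cleaving enzyme. It had 2121 and 635 reads, 107 and 40.3 CPM, 2.65-fold lower (2.42 to 2.90). Cfp lies on chromosome X, 20925454 to 20931555, minus strand. The same macrophage markers stand beside this value, as do neutrophil markers, of which 6 of 9 measured at 1 CPM were lower, with a median ratio of 0.864 and sums of 642 and 597 CPM over the list of 10. S100a8 and S100a9, which define neutrophils, had ratios of 1.04 and 0.864. With the GC and length correction the median log2 difference of the neutrophil list went from -0.21 to -0.40. Of 8 monocyte and dendritic cell markers at 1 CPM 5 were lower, with a median ratio of 0.756. Of 9 T and NK cell markers at 1 CPM all 9 were lower, with a median ratio of 0.561. The part of these cell types in the Cfp value was not tested.

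Cfd encodes factor D, the protease that cleaves factor B. Its gene lies on the plus strand of chromosome 10, 79890853 to 79892655. Cfd had 209 reads in WT against 20 in KO, 10.5 and 1.27 CPM, the largest difference among the 32 genes. It was 8.29-fold lower (5.23 to 13.8), and after the GC and length correction its log2 difference went from -3.05 to -2.61. Adipocytes are the best known source of Cfd. Reads of adipocyte-defining genes were few: Adipoq had 17 and 1 reads, Plin1 2 and 0, Lep 13 and 0, and Retn 5 and 1. Of the other 6 genes of that list, which include Pck1 and Car3 that hepatocytes also make, 5 were lower, against 54.1% of all genes. At least 2-fold lower were 2 of the 6, Lpl and Adrb3, against 12.4% of all genes. Cidec, at 209 and 193 reads, had a ratio of 1.16, and Fabp4, at 1556 and 1158 reads, had 0.939. The summed list had 5184 CPM in WT against 3975 in KO, nearly all of it from Pck1 and Car3. The part of adipocyte RNA in the Cfd value was not tested.

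The terminal pathway was nearly level, with C7 apart. Hc encodes C5, the start of the terminal pathway, and had 677 CPM in WT against 691 in KO, a ratio of 1.02 (0.995 to 1.05). C6 had 259 and 244 CPM, a ratio of 0.942 (0.903 to 0.982), and C9, the pore-forming unit, had 375 and 393 CPM, a ratio of 1.05 (1.01 to 1.08). The 3 chains of C8 had ratios of 1.08 (1.05 to 1.11) for C8a, 1.10 (1.07 to 1.13) for C8b and 0.994 (0.962 to 1.03) for C8g. Per length the C8 chains stood at 144, 173 and 268 FPKM in WT for C8a, C8b and C8g, and at 156, 190 and 267 FPKM in KO, so their order was the same in both libraries. C8a and C8b lie 11.1 kb apart on chromosome 4. These 6 genes made by hepatocytes thus had ratios of CPM from 0.942 to 1.10. After the GC and length correction the log2 differences of Hc, C6 and C9 were -0.08, -0.19 and -0.18. Those of C8a, C8b and C8g were 0.01, 0.00 and -0.05.

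C7, which joins C5b and C6 in the growing complex and is made largely by stromal and endothelial cells, was the low member of this group. It had 221 and 122 reads, 11.1 and 7.75 CPM, 1.44-fold lower (1.15 to 1.81). Its neighbour C6, 173.8 kb away on chromosome 15, was 1.06-fold lower (1.02 to 1.11). Of 10 stellate cell and fibroblast markers 6 were lower, near the 54.1% of all genes. The 10 had a median ratio of 0.842 and sums of 1023 and 967 CPM. With the GC and length correction their median log2 difference went from -0.25 to 0.11, whereas C7 went from -0.52 to -0.70. Lrat, which defines stellate cells, had a ratio of 1.90, and Des 0.505. Of 10 endothelial markers 8 were lower, against the same 54.1%, with a median ratio of 0.897 and sums of 1211 and 809 CPM. Their median log2 difference went from -0.16 to -0.06 with the same correction. Pecam1 and Cdh5, which define endothelium, had ratios of 0.957 and 0.595. Their part in the C7 value was not tested.

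All 5 soluble regulators were higher in KO, at ratios from 1.15 to 1.34, except that C4bp was below 0 after the GC and length correction. Cfi encodes factor I, the protease that inactivates C3b and C4b, and had 441 CPM in WT against 591 in KO, a ratio of 1.34 (1.30 to 1.38). Vtn, vitronectin, which blocks insertion of the terminal complex, had 2847 and 3636 CPM, a ratio of 1.28 (1.26 to 1.29). C4bp, a cofactor of factor I for C4b, and Serping1, the inhibitor of C1r, C1s and MASPs, each had a ratio of 1.16 (1.12 to 1.20 and 1.14 to 1.19). Clu, clusterin, which also holds back the terminal complex, had 2353 and 2705 CPM, a ratio of 1.15 (1.13 to 1.17). As a sum the regulators had 6866 CPM in WT against 8355 in KO. Differences of this size were common among genes of hepatocytes in these libraries. The list of 20 hepatocyte secreted proteins had a median ratio of 1.22, with 17 higher, and ranged from F2 at 0.942 to Alb at 1.80. With that correction the log2 difference of C4bp went from 0.21 to -0.08 and that of Clu from 0.20 to 0.86.

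The membrane regulators were also higher in KO by CPM, at low levels, but not after the GC and length correction. Cd55, which speeds the decay of C3-cleaving enzymes, had 59.2 and 71.1 CPM, a ratio of 1.20 (1.11 to 1.30). Cr1l, the rodent regulator also called Crry, had 38.1 and 45.9 CPM, a ratio of 1.20 (1.09 to 1.34). Cd59a, which stops C9 from polymerising, had 49.1 and 55.2 CPM, a ratio of 1.13 (1.03 to 1.23). After that correction the log2 differences of Cd55, Cr1l and Cd59a were 0.05, 0.00 and -0.04. Parts of Cd55 and Cd59a resemble Cd55b and Cd59b. Cd55b had 0 reads in WT against 1 in KO, and Cd59b had 100 against 99.

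The 3 receptors on leukocytes went 3 ways. C5ar1, the main receptor for C5a on neutrophils and macrophages, had 1568 reads in WT against 922 in KO. That is 78.9 and 58.5 CPM, a ratio of 0.742 (0.683 to 0.805). C3ar1, the receptor for C3a, had 238 and 192 reads, 12.0 and 12.2 CPM, a ratio of 1.02 (0.837 to 1.24). C5ar2, a second C5a receptor that does not couple to G proteins, had 49 and 60 reads, 2.47 and 3.81 CPM, a ratio of 1.54 (1.04 to 2.30). C5ar1 and C5ar2 lie 2.6 kb apart on chromosome 7 and their intervals do not overlap. Per length, C5ar1 had 44.3 times the level of C5ar2 in WT and 21.3 times in KO.

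Set against each other, genes made by hepatocytes and receptors on leukocytes had close medians by CPM, which lay further apart in some of the alternatives. The 22 hepatocyte genes had a median log2 difference of 0.09 (ratio 1.06), with 8 lower and 14 higher. The 3 receptors had a median of 0.02 (ratio 1.02), with 1 lower and 2 higher, a difference of -0.06 between the medians. Over all 14072 genes the median was -0.07. With 3 receptors the median is the value of C3ar1 alone, and on genes at 5 CPM or more, which leaves out C5ar2 and Cfb, the difference of medians was -0.31. After the GC and length correction the receptor median went from 0.02 to -0.19, with C5ar1 and C3ar1 lower, and the difference of medians was -0.20. By sums, hepatocyte genes had 19776 CPM in WT against 20103 in KO, a ratio of 1.02 (1.01 to 1.02). The receptors had 93.4 and 74.5 CPM, a ratio of 0.798 (0.741 to 0.859), most of it from C5ar1. No test of the difference between the groups exists with 1 library per genotype.

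**Figure D3:**
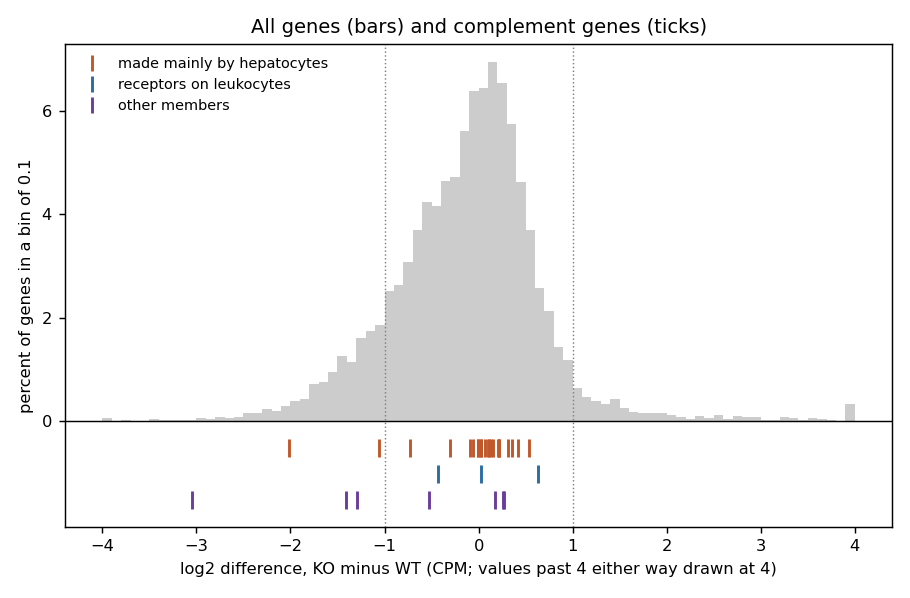
Distribution of log2 differences (KO minus WT, CPM) of the 14072 genes at 1 CPM or more as grey bars, in percent of genes per bin, with complement genes as ticks under it by main source. Ticks of the 22 hepatocyte genes crowd around their median of 0.09 apart from C4a, C4b and Cfb, and the 3 receptors spread from -0.43 to 0.63.

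Among complement genes outside the 32, the chains of C1q were the lowest in KO and Cr2 had the highest ratio. Of 27 further genes 24 reached 1 CPM, of which 14 were lower and 10 higher, with a median of -0.06. Over all genes 54.1% were lower, so the direction of these genes was near the background. Of the 24, 5 were at least 2-fold lower and 1 at least 2-fold higher, against 12.4% and 4.63% of all genes. The 3 lowest were the chains of C1q, the recognition unit of the classical pathway, which macrophages make. C1qa had 174 and 55.3 CPM, a ratio of 0.317 (0.294 to 0.342), C1qb 237 and 89.6 CPM, a ratio of 0.379 (0.357 to 0.402), and C1qc 180 and 56.6 CPM, a ratio of 0.315 (0.292 to 0.339). So the transcripts of the C1q chains were 2.93-fold lower as a sum (2.82 to 3.05), while those of the proteases, C1ra and C1s1, were level by CPM. After the GC and length correction the log2 differences of C1qa, C1qb and C1qc were -1.22, -1.18 and -1.45. Those of C1ra and C1s1 were 0.02 and -0.15. Itgb2, the shared chain of complement receptors 3 and 4, and Susd4, a regulator, were the other 2 at least 2-fold lower, with ratios of 0.436 and 0.454. With the GC and length correction Susd4 went from -1.14 to -0.67, and 4 of the 24 remained at least 2-fold lower. Among the highest were Cr2, complement receptor 2 of B cells, at 4 and 24 reads, a ratio of 7.57 (2.60 to 30.0), and C1s2, at 16 and 17 reads, a ratio of 1.34 (0.637 to 2.83).

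**Figure D4:**
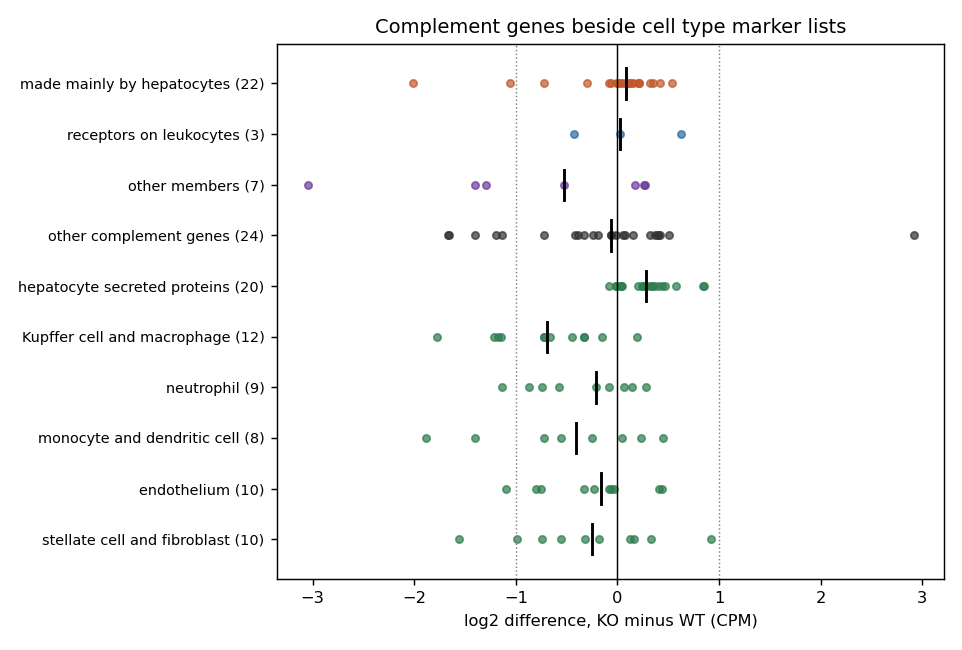
Log2 difference (KO minus WT, CPM) of each gene at 1 CPM or more, by list, with the number of genes in brackets and the median as a black bar. The 3 receptors on leukocytes spread from -0.43 to 0.63 with a median of 0.02, whereas Kupffer cell and macrophage markers have a median of -0.69 and hepatocyte secreted proteins of 0.28.

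GC content went with the difference among complement genes as it did among all genes. Spearman's rho between GC content and log2 difference was -0.45 over the 32 genes and -0.46 over 14055 genes, a description across genes that share both libraries. Cfd, Cfp and Fcna had GC contents of 58.4%, 56.3% and 55.5%. Clu and Vtn, at 55.6% and 55.3%, were higher in KO, and C4a and C4b, at 55.1% and 55.3%, were lower. After the correction 4 members remained at least 2-fold lower, namely C4a, Fcna, Cfd and Cfp, or 12.5% of members against 6.77% of all genes. None was at least 2-fold higher, against 5.22%, and 17 were lower by any amount, 53.1% against 49.5%. C7 and the receptors C3ar1 and C5ar1 were lower than before, at -0.70, -0.19 and -0.57.

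**Figure D5:**
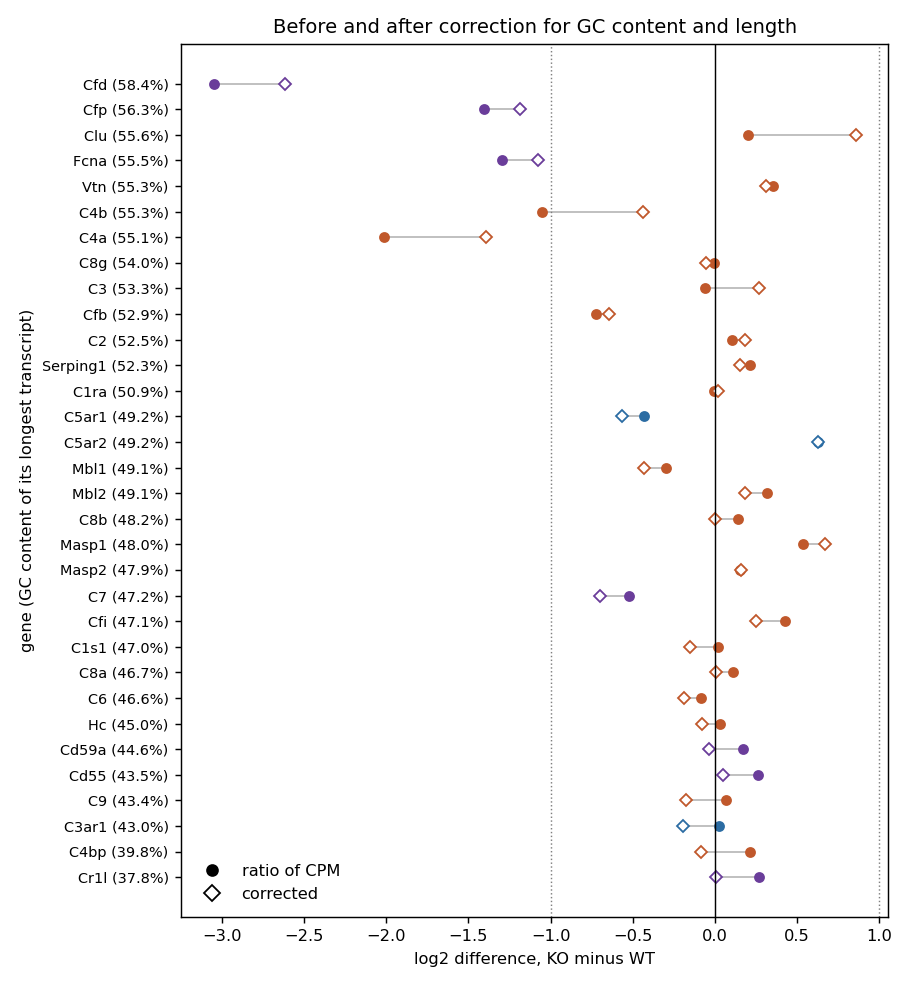
Log2 difference (KO minus WT) of the 32 complement genes before (filled circles) and after (open diamonds) correction for GC content and length, ordered by GC content of the longest transcript, with dotted lines at 2-fold. C4b crosses from -1.06 to -0.44, whereas C4a, Cfd, Cfp and Fcna stay past the dotted line.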

How the data were processed

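The deposited tables hold whole-number read counts per gene, although they are named FPKM, so they were treated as counts that the authors had not normalized. TopHat2, HTSeq 0.6.1 and GRCm38 are named in the submitters' processing notes. The annotation, the strand setting and any filter are not stated there. Entries without an annotated gene (209) held 0.652% of WT counts and 0.496% of KO counts and were left out.

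Symbols, exon lengths and positions came from GENCODE M21 (GRCm38), which held 52489 of 52636 Ensembl genes, and GC content from each gene's longest transcript. CPM used all Ensembl entries. Ratios carry no pseudocount, and intervals are exact 95% Clopper-Pearson bounds given the summed reads. A library at 0 reads was set to 3 reads (0.151 CPM in WT, 0.190 in KO) and no difference was taken where both had 3 or fewer. Groups came from the genotype labels. With 1 library per group no test exists. The 2-fold rule applies to genes at 1 CPM or more in either library.

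The GC and length correction placed genes in 10 bins of GC content, each cut into 4 by length, and subtracted the bin's median log2 difference over genes of at least 100 reads. It also removes real differences that go with either. The members, lists and motifs were chosen with earlier results of these data known. The text names all 32 members, the 3 highest and 3 lowest further complement genes (1 of them is not reported here), Gbp5, and the defining or extreme genes of marker lists. Transcripts were aligned with blastn 2.17.0. Steps were tested on simulated counts. Python 3.11.15, numpy 2.4.6, pandas 2.3.3 and scipy 1.17.1 were used, and R 4.3.3 with edgeR 4.0.16 gave the TMM factors.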

Additional observations from a re-analysis of the deposited data

How the results depend on the processing

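The medians of hepatocyte genes, of receptors and of further complement genes were recomputed with median of ratios scaling, TMM factors, totals without the 50 most abundant genes, a pseudocount of 1 on FPKM or on CPM, the GC and length correction, a filter at 5 CPM and no filter. A move was set against the narrower counting interval of the genes at the median, a rule tightened after seeing the data. The hepatocyte median of 0.085 moved beyond it to 0.189 with totals without the 50 most abundant genes and to 0.0053 with the correction, and the median of further complement genes of -0.064 moved to 0.040, above 0, with those totals. The receptor median ranged from -0.20 to 0.13 and its difference from hepatocyte genes from -0.31 to -0.06, both within the wide counting interval of C3ar1 although the receptor median changed sign at 5 CPM or more and with the correction. The members at least 2-fold lower numbered 4 or 5 in each of these settings, and C4b was the member lost with the correction and with totals without the 50 most abundant genes. None was at least 2-fold higher in any of them. With a 1.5-fold rule 1 member was higher in place of 0. Without C4a, C4b, C2 and Cfb, an alternative chosen after seeing the data, 3 members were at least 2-fold lower. Totals without the 50 most abundant genes shifted the median of all genes from -0.07 to 0.04. Of all genes past 2-fold, 72.9% were lower, but 56.5% after the correction, 86.2% at 5 CPM or more, 57.8% with no filter and 85.7% on FPKM plus 1. No paired analysis was possible because each genotype is 1 library. Depth limits Cfb, Cfd, C7, C3ar1 and C5ar2, each under 250 reads per library.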

Other observations

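Further groups of complement genes, picked for description after their values were seen, lay on both sides of WT. The carboxypeptidases that inactivate anaphylatoxins were mixed. Cpn1, the active subunit of carboxypeptidase N, had 413 CPM in WT against 435 in KO, a ratio of 1.05 (1.02 to 1.09). Cpn2, its stabilising subunit, had 168 and 126 CPM, a ratio of 0.749 (0.708 to 0.792), and a log2 difference of 0.05 after the GC and length correction. Cpb2 had 215 and 283 CPM, a ratio of 1.32 (1.26 to 1.37). The liver collectins Colec10 and Colec11 had ratios of 1.32 (1.20 to 1.45) and 0.877 (0.787 to 0.978). With that correction the log2 difference of Cpb2 went from 0.40 to 0.19, that of Colec10 from 0.40 to 0.12 and that of Colec11 from -0.19 to -0.25.

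Of the receptors for surface-bound C3 fragments that myeloid cells carry, those named here were lower in KO, as were 54.1% of all genes. C3ar1, the receptor for C3a, had a ratio of 1.02 (0.837 to 1.24). Itgam and Itgax, the alpha chains that pair with Itgb2, had 14.6 and 11.2 CPM and 10.2 and 6.16 CPM, ratios of 0.763 (0.629 to 0.923) and 0.606 (0.470 to 0.775). Vsig4, the C3b receptor of resident macrophages, had 397 and 250 reads, a ratio of 0.794 (0.675 to 0.933).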
